A study of Mus musculus with 27 samples.

Results

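The 48 genes described here encode proteins that cells use when they divide: the kinase CDK1 and its cyclins, other mitotic kinases, the spindle assembly checkpoint, the anaphase-promoting complex, the chromosomal passenger complex, kinetochore and centromere proteins, kinesin motors, proteins of spindle microtubules, cytokinesis factors, proteins that shape chromosomes, and a pair of transcription factors of this programme. They are known mitosis genes picked by symbol, at a time when earlier results of these data were known. All 48 symbols were found among the 21823 genes of the deposited table, and all 48 reached 1 FPKM in at least 3 libraries, the level needed to enter the tests.

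Most hepatocytes of an adult liver rest outside the cell cycle and return to it when the organ has to grow, as after partial hepatectomy or in pregnancy. In a dividing cell, CDK1 bound to cyclin B drives entry into mitosis, kinetochores tie the chromosomes to spindle microtubules, the checkpoint holds the cell in metaphase until all are attached, and the anaphase-promoting complex then destroys cyclin B and frees the chromatids. Many of these genes are transcribed together late in the cycle, in G2 and M phase, and their RNA is therefore widely read as a sign of proliferating cells.

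RNA was collected by laser microdissection, in which areas of a frozen liver section are cut out with a laser under the microscope, and was sequenced. All libraries came from female wild-type mice labelled C57BL/6 (C57BL/6N in the methods of the study), which were non-pregnant (NP) or pregnant at 8 or 16 days post coitum (dpc8 and dpc16). At each stage zone 1 (around the portal vein), zone 2 (between the veins) and zone 3 (around the central vein) were taken, with 3 libraries for each stage and zone, 27 in all. An area holds every cell type present in it, and the labels do not say whether the 3 libraries of a group came from different mice, so that p-values measure the spread between these libraries.

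Levels are FPKM, sequenced fragments per kilobase of transcript and scaled to the mapped fragments of the library, and tests used log2(FPKM + 1), on which differences of weakly expressed genes come out too small. Read counts were not used here, and the steps between low FPKM values correspond to about 7.52 to 33.3 M reads per library. In 6 libraries, the FPKM of 4 Y-linked genes (Uty, Kdm5d, Ddx3y and Eif2s3y) added up to 7.92 to 23.2, against at most 2.97 in the other 21, although every mouse was labelled female. The cut was set at a sum of 5 FPKM. Lower sums remained among the 21, as in replicate 3 of dpc16 zone 1 (2.97) and replicate 2 of dpc8 zone 1 (2.81). These 6 are replicate 1 of NP zone 1, replicate 1 of dpc8 zone 1, replicate 2 of dpc8 zone 2, replicate 3 of dpc16 zone 2, replicate 2 of NP zone 3 and replicate 3 of dpc16 zone 3, and they are called Y-linked libraries below. They also had the highest levels of 10 connective tissue and smooth muscle markers such as Col1a1, Acta2 and Tagln, whose FPKM summed to between 1084 and 4868 in them and to between 112 and 614 in the other 21. Results are therefore given with and without them. At dpc8 the zones kept to their labels: 7 of 10 known markers of zone 1 passed the threshold as higher there than in zone 3, and 10 of 10 of zone 3 as lower. Of all genes, 1.61% passed it in either direction.

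The mitosis genes were highest in zone 1 at dpc8 and, over all libraries, lowest in zone 1 at dpc16. Averaged over the 48 genes on the log2 scale, the 3 libraries of dpc8 zone 1 stood at 3.60, 2.35 and 2.69 and those of dpc16 zone 1 at 0.59, 0.52 and 1.07, in the order of replicates 1, 2 and 3. Every dpc8 zone 1 library thus lay above every dpc16 zone 1 library. In bulk samples such as these, fewer cells of a type and less RNA per cell cannot be told apart.

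By group mean, the order from high to low was dpc8 zone 1 (2.88 ± 0.65, SD, n = 3), dpc8 zone 2 (2.14 ± 0.35), NP zone 1 (1.57 ± 0.83), dpc16 zone 3 (1.47 ± 0.84), NP zone 3 (1.43 ± 0.84), dpc8 zone 3 (1.27 ± 0.47), dpc16 zone 2 (1.27 ± 1.11), NP zone 2 (1.20 ± 0.07) and dpc16 zone 1 (0.73 ± 0.30). The 5 groups from NP zone 1 to dpc16 zone 2 differed from one another by less than any of their SDs. Each of the 6 Y-linked libraries was the highest of its group for this average. Without them, dpc8 zone 1 (2.52) and dpc8 zone 2 (1.94) kept the first places, and the lowest places went to dpc16 zone 2 (0.62) and dpc16 zone 1 (0.73).

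**Figure D1:**
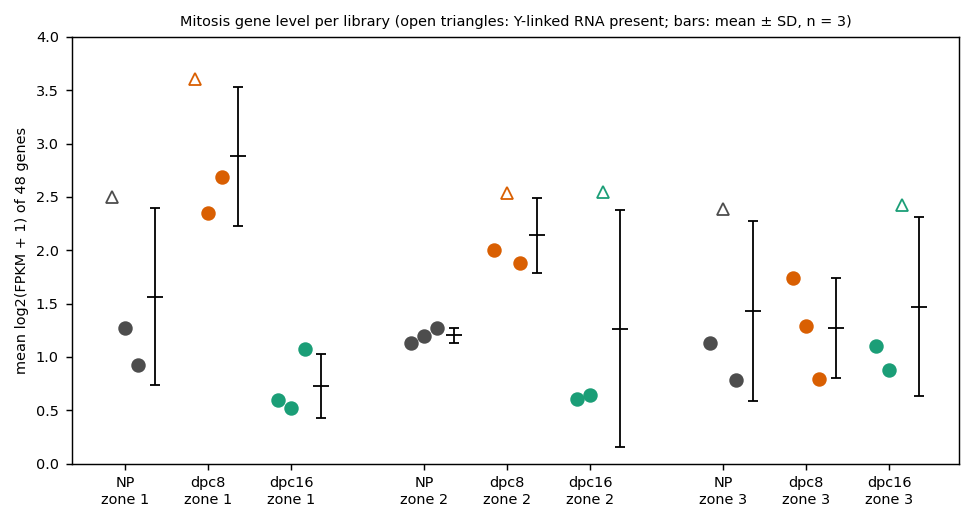
Mean log2(FPKM + 1) of the 48 mitosis genes (vertical axis) in each of the 27 libraries, grouped by stage and zone along the horizontal axis. Open triangles are the Y-linked libraries, filled circles are the others, and bars give the mean ± SD of the 3 libraries. The dpc8 zone 1 libraries lie between 2.35 and 3.60 and the dpc16 zone 1 libraries between 0.52 and 1.07, and in each group that has a triangle it is the highest point.

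The same order held for most genes singly. Zone 1 at dpc8 was the group with the highest mean for 47 of the 48 genes (40 without the Y-linked libraries), and zone 1 at dpc16 the one with the lowest for 35 (14 without them, when zone 2 at dpc16 was lowest for 24). Between 41 and 48 of the genes reached 1 FPKM in a dpc8 zone 1 library, and between 10 and 22 in a dpc16 zone 1 library. Replicates 1 and 2 of dpc16 zone 1 had the fewest estimated reads of all libraries, 10.4 and 7.52 M, with 12 and 16 of the genes at 0. Replicate 3 had 23.4 M and 5 genes at 0, and replicate 2 of dpc8 zone 1 had 11.1 M and 0 genes at 0. Albumin made up 17.3% to 20.6% of summed FPKM in dpc16 zone 1 and 6.48% to 10.7% in dpc8 zone 1. The part of depth and albumin in the result was not tested. Within dpc8, zone 1 had the highest mean for 47 genes and zone 3 the lowest for 46 (42 and 41 without the Y-linked libraries). Within dpc16, zone 3 had the highest mean for 35 genes both with and without those libraries.

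**Figure D2:**
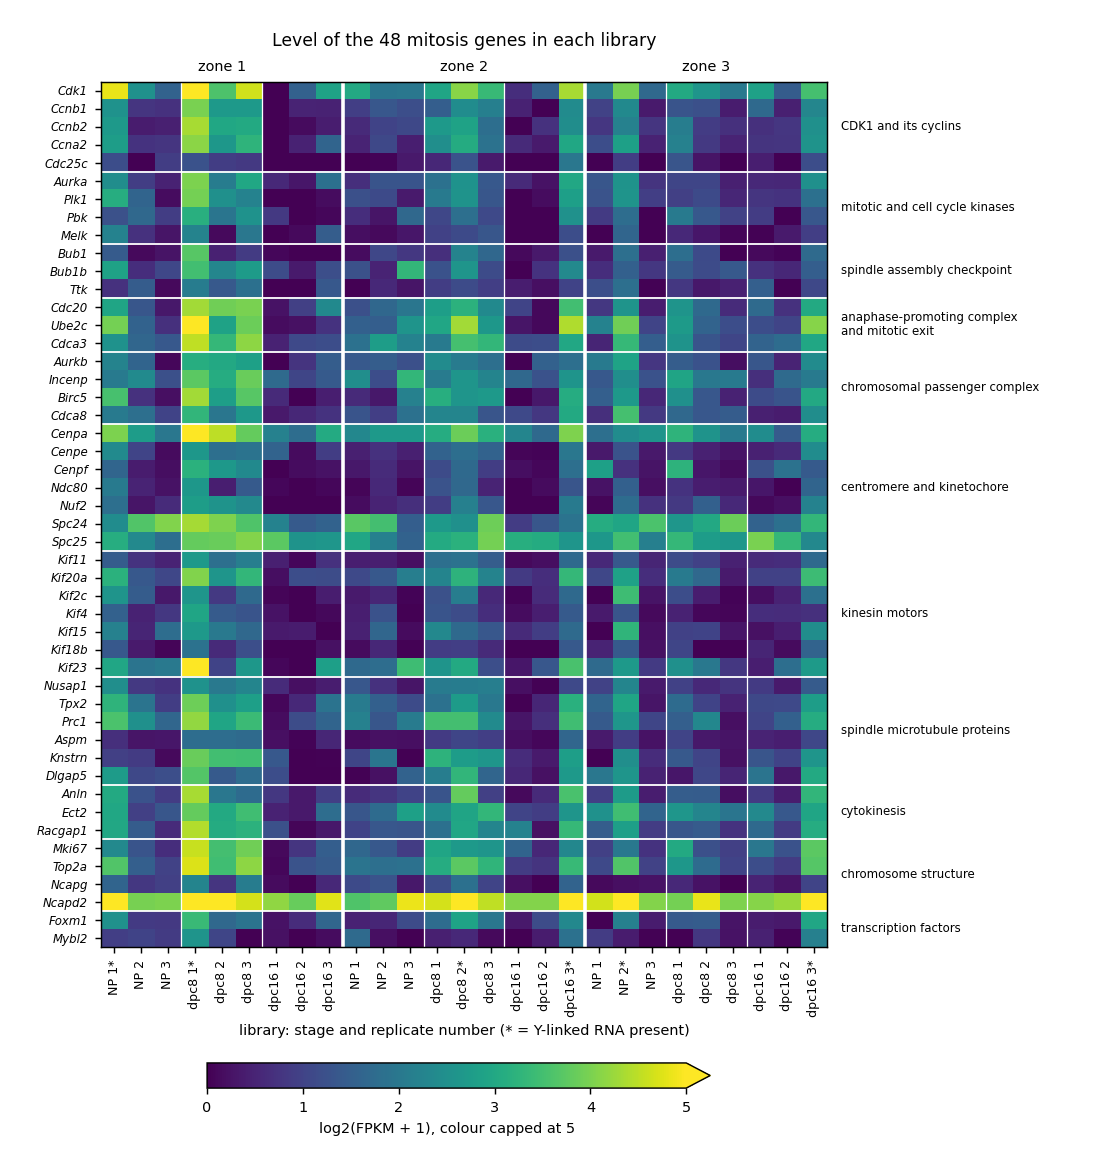
Level of each of the 48 mitosis genes (rows, ordered by role) in each of the 27 libraries (columns, by zone, stage and replicate), as log2(FPKM + 1) with the colour capped at 5. Asterisks mark the 6 Y-linked libraries. The dpc8 columns of zone 1 are the brightest for most rows, the marked columns stand out within NP zones 1 and 3 and dpc16 zones 2 and 3, and Ncapd2 is bright in every library.

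Promoter sequences are shown for 10 of the genes because many mitosis genes carry a pair of short elements near their start known from shared G2 and M phase transcription: the cell cycle genes homology region, TTTGAA or TTCGAA, and the CCAAT box. Windows of 300 bases, from 250 before the transcription start to 50 after it, were taken from RefSeq on GRCm38.p6, and 38 of the 48 genes could be matched, to 40 windows. TTTGAA or TTCGAA stood on either strand in 32 of the 40 windows (80.0%), against 19.2% of all 32851 windows of this length and 14.1% of those of the genes tested. Within 50 bases of the start it was found in 72.5% of the windows, against 5.31% of all and 3.66% of those of the genes tested. CCAAT stood in 75%, against 37.4% of either, and both elements in 70.0%, against 7.53% and 5.65%. The median GC content was 58.8% for the mitosis genes, above that of all windows (52.7%) and below that of the genes tested (60.3%). TTCGAA reads the same on both strands, the elements can share a letter where they adjoin, and a match describes the sequence and is not a binding site that was measured.

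The 10 windows below were picked after values and sequences had been seen. They are those of Mki67, Ccnb2, Cdca3, Aspm, Kif11, Kif4, Knstrn, Nuf2 and Nusap1, which the comparisons below name repeatedly, and of Cdk1, the kinase that the cyclins activate. They are written 5′ to 3′ on the gene's own strand in lower case, with every TTTGAA or TTCGAA and every CCAAT of either strand in capitals, so that TTCAAA and ATTGG are the same elements read on the other strand. The windows of Mki67 and Ccnb2 hold 3 CCAAT elements and 2 of TTTGAA each. In Cdca3, Aspm, Kif11 and Kif4 the single TTTGAA lies within 50 bases of the start. Knstrn, Nuf2 and Nusap1 have none of these elements in their windows, and neither have Birc5, Melk and Mybl2.
Mki67 (chr7:135716330-135716629, minus strand): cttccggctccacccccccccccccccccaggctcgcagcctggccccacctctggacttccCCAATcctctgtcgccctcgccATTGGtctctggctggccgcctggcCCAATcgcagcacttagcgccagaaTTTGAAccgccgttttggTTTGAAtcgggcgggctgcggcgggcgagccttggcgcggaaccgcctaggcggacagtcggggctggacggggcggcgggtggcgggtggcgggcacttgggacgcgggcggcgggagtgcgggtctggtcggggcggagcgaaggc
Ccnb2 (chr9:70421505-70421804, minus strand): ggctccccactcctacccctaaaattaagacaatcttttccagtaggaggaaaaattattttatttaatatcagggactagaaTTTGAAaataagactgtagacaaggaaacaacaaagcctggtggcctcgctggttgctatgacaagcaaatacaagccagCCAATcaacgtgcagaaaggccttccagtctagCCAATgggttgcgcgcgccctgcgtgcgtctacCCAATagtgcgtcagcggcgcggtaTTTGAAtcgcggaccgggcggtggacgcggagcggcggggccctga
Cdk1 (chr10:69352863-69353162, minus strand): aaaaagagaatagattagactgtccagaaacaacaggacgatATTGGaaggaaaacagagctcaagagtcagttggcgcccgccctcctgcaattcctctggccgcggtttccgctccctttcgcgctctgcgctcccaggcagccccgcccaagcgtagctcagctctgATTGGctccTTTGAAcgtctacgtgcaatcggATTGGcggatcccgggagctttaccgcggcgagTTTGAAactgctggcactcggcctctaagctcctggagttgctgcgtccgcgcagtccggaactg
Cdca3 (chr6:124829926-124830225, plus strand): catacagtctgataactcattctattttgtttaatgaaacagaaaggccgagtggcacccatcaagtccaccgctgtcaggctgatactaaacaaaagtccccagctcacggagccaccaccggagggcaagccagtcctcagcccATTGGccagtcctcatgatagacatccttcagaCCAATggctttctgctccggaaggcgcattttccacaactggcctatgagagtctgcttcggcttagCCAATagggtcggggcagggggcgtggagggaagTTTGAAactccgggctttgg
Aspm (chr1:139454523-139454822, plus strand): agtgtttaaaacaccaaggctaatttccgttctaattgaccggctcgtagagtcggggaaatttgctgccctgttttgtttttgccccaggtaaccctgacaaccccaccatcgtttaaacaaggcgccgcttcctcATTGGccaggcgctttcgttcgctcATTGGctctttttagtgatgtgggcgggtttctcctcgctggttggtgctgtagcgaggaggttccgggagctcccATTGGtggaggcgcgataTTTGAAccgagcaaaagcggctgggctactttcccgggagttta
Kif11 (chr19:37376132-37376431, plus strand): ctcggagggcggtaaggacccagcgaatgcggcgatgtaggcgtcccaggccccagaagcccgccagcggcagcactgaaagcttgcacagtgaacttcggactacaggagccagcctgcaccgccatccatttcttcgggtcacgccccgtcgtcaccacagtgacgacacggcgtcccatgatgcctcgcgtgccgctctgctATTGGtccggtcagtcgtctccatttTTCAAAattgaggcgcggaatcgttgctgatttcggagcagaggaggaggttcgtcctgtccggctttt
Kif4 (chrX:100625815-100626114, plus strand): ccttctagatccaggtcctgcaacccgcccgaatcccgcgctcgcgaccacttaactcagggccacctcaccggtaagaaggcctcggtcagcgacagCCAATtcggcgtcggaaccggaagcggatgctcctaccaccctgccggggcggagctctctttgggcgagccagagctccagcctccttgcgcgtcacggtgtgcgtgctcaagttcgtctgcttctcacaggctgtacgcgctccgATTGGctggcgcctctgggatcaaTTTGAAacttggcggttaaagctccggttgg
Knstrn (chr2:118813753-118814052, plus strand): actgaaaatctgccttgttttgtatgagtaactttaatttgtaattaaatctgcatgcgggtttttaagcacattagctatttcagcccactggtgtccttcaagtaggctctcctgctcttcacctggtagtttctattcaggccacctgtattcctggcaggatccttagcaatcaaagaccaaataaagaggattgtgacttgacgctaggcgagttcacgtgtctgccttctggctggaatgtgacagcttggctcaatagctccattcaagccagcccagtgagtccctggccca
Nuf2 (chr1:169531415-169531714, minus strand): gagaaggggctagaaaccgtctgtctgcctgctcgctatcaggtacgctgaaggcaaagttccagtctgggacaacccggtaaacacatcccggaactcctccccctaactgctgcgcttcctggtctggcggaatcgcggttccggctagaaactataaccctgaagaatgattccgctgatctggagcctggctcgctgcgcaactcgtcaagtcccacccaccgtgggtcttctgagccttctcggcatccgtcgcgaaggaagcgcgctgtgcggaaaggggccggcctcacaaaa
Nusap1 (chr2:119618048-119618347, plus strand): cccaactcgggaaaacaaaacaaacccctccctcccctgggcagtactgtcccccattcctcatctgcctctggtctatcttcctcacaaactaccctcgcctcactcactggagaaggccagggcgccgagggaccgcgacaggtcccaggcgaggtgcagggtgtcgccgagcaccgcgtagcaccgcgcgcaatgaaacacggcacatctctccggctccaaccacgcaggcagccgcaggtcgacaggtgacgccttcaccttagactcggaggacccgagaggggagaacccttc

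In the following, FPKM values of a gene are listed in the order of replicates 1, 2 and 3 of a group. The genes with values in every library are those with the 2 highest mean FPKM in each role, together with the 3 that had the largest and the 3 that had the smallest fitted difference between dpc8 and NP in zone 1. Any other gene whose libraries are listed was picked after its values were seen.

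CDK1 and its cyclins carry the cell into mitosis, and Cdc25c encodes the phosphatase that switches CDK1 on. Cdk1 in zone 1 was listed at 27.6, 4.79 and 1.97 FPKM in NP, at 38.9, 11.2 and 24.0 at dpc8 and at 0, 1.93 and 6.37 at dpc16. In zone 2, Cdk1 had 7.13, 2.84 and 2.96 in NP, 6.72, 16.3 and 9.38 at dpc8 and 0.563, 1.95 and 19.2 at dpc16. For Cdk1, the zone 3 values were 3.08, 14.6 and 2.23 in NP, 7.21, 5.09 and 3.05 at dpc8 and 6.26, 1.74 and 10.5 at dpc16. The dpc8 zone 1 libraries of Cdk1 were all above those of dpc16 zone 1 and of dpc8 zone 3, but not above NP zone 1, where the Y-linked library reached 27.6. Ccna2 in zone 1 was listed at 5.91, 0.651 and 0.705 FPKM in NP, at 16.6, 5.24 and 8.53 at dpc8 and at 0, 0.384 and 2.04 at dpc16. In zone 2, Ccna2 had 0.407, 1.11 and 0.342 in NP, 4.52, 7.49 and 2.69 at dpc8 and 0.502, 0.289 and 6.85 at dpc16. For Ccna2, the zone 3 values were 1.26, 6.15 and 0.396 in NP, 3.60, 0.779 and 0.405 at dpc8 and 0.690, 0.698 and 4.91 at dpc16. Cyclin A2, which acts from S phase into early mitosis, was higher in every dpc8 library of zone 2 than in any NP library there. Cdc25c in zone 1 was listed at 1.27, 0 and 0.878 FPKM in NP, at 1.39, 0.867 and 0.773 at dpc8 and at 0, 0 and 0 at dpc16. In zone 2, Cdc25c had 0, 0.0366 and 0.271 in NP, 0.471, 1.44 and 0.281 at dpc8 and 0, 0 and 2.94 at dpc16. For Cdc25c, the zone 3 values were 0, 0.872 and 0 in NP, 1.49, 0.207 and 0 at dpc8 and 0.340, 0 and 1.26 at dpc16. Cdc25c was at 0 in 11 of the 27 libraries, the most of the 48 genes, and in all 3 of dpc16 zone 1. Ccnb2 in zone 1 was listed at 5.50, 0.296 and 0.355 FPKM in NP, at 19.2, 6.87 and 7.16 at dpc8 and at 0, 0.0998 and 0.321 at dpc16. In zone 2, Ccnb2 had 0.517, 1.01 and 1.13 in NP, 5.49, 6.36 and 2.50 at dpc8 and 0, 0.639 and 4.46 at dpc16. For Ccnb2, the zone 3 values were 0.719, 3.60 and 0.710 in NP, 3.34, 0.852 and 0.618 at dpc8 and 0.614, 0.731 and 4.72 at dpc16. Cyclin B2 thus ran from 6.87 to 19.2 at dpc8 in zone 1 and did not exceed 0.321 at dpc16 there. Its single transcript allows the reads to be estimated from the FPKM steps, at 0 to 602 per library with a median of 19.0, and under 10 in 4 libraries.

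Aurka encodes the kinase that matures the spindle poles, and Plk1 encodes Polo-like kinase 1, which acts from mitotic entry to cytokinesis. Aurka in zone 1 was listed at 4.49, 0.880 and 0.398 FPKM in NP, at 15.2, 3.29 and 6.85 at dpc8 and at 0.485, 0.240 and 2.59 at dpc16. In zone 2, Aurka had 0.587, 1.45 and 1.47 in NP, 2.66, 4.85 and 1.61 at dpc8 and 0.510, 0.183 and 6.98 at dpc16. For Aurka, the zone 3 values were 1.54, 4.93 and 0.674 in NP, 1.06, 1.06 and 0.360 at dpc8 and 0.491, 0.462 and 4.73 at dpc16. Aurka in zone 1 did not overlap between dpc8 and dpc16, and in zones 2 and 3 the Y-linked dpc16 libraries were higher than any dpc8 library. Plk1 in zone 1 was listed at 7.69, 2.06 and 0.118 FPKM in NP, at 14.4, 4.67 and 3.68 at dpc8 and at 0, 0 and 0.128 at dpc16. In zone 2, Plk1 had 1.32, 1.17 and 0.276 in NP, 3.09, 4.94 and 1.53 at dpc8 and 0, 0.122 and 6.09 at dpc16. For Plk1, the zone 3 values were 1.44, 5.04 and 0.912 in NP, 0.923, 1.19 and 0.449 at dpc8 and 0.705, 0.657 and 2.61 at dpc16. Plk1 was at or near 0 in all 3 dpc16 libraries of zone 1, at most 0.128. Pbk and Melk, the other kinases of the set, had means over all libraries of 1.66 and 0.836 FPKM.

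The checkpoint genes Bub1, Bub1b and Ttk encode kinases, or a kinase-like protein in the case of Bub1b, that delay anaphase while kinetochores are unattached. Bub1b in zone 1 was listed at 6.33, 0.584 and 1.10 FPKM in NP, at 10.2, 3.89 and 5.68 at dpc8 and at 1.25, 0.288 and 1.30 at dpc16. In zone 2, Bub1b had 1.36, 0.416 and 8.94 in NP, 1.39, 5.09 and 1.21 at dpc8 and 0, 0.659 and 4.12 at dpc16. For Bub1b, the zone 3 values were 0.567, 1.88 and 0.755 in NP, 1.70, 1.21 and 1.62 at dpc8 and 0.645, 0.479 and 1.82 at dpc16. Every dpc8 zone 1 library of Bub1b lay above all libraries of dpc16 zone 1 and of dpc8 zone 3, and a single NP library of zone 2 reached 8.94. Bub1 in zone 1 was listed at 1.71, 0.0873 and 0.197 FPKM in NP, at 12.0, 0.371 and 0.833 at dpc8 and at 0.0596, 0 and 0 at dpc16. In zone 2, Bub1 had 0.116, 1.10 and 0.758 in NP, 0.587, 3.72 and 2.2 at dpc8 and 0.0905, 0.260 and 1.34 at dpc16. For Bub1, the zone 3 values were 0.279, 2.57 and 0.365 in NP, 2.48, 1.19 and 0 at dpc8 and 0.0922, 0.0355 and 2.31 at dpc16. For Bub1, the Y-linked library held nearly all of the dpc8 zone 1 signal, 12.0 against 0.371 and 0.833 in the others.

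Cdc20 activates the anaphase-promoting complex, Ube2c is the ubiquitin-conjugating enzyme that works with it, and Cdca3 is needed for the timed breakdown of the mitosis inhibitor WEE1. Cdc20 in zone 1 was listed at 6.71, 1.52 and 0.248 FPKM in NP, at 18.7, 14.0 and 15.0 at dpc8 and at 0.181, 0.922 and 4.21 at dpc16. In zone 2, Cdc20 had 1.33, 2.16 and 2.88 in NP, 6.01, 8.24 and 4.15 at dpc8 and 1.04, 0.0763 and 10.2 at dpc16. For Cdc20, the zone 3 values were 0.764, 5.05 and 0.313 in NP, 4.98, 2.26 and 0.524 at dpc8 and 2.34, 0.636 and 7.26 at dpc16. Cdc20 was between 14.0 and 18.7 in all 3 dpc8 libraries of zone 1, over every NP and dpc16 library of that zone. Ube2c in zone 1 was listed at 14.5, 1.98 and 0.616 FPKM in NP, at 35.4, 6.32 and 13.7 at dpc8 and at 0.125, 0.173 and 0.670 at dpc16. In zone 2, Ube2c had 1.88, 1.83 and 5.04 in NP, 6.79, 18.8 and 5.25 at dpc8 and 0.221, 0.0793 and 20.1 at dpc16. For Ube2c, the zone 3 values were 3.63, 14.1 and 1.04 in NP, 5.65, 2.00 and 1.27 at dpc8 and 1.28, 1.05 and 16.2 at dpc16. Ube2c spanned the widest range of the 3, from 0.0793 to 35.4, and all 6 Y-linked libraries were at 14.1 or more. Cdca3 in zone 1 was listed at 4.82, 2.15 and 1.61 FPKM in NP, at 21.9, 9.03 and 16.8 at dpc8 and at 0.391, 1.15 and 1.25 at dpc16. In zone 2, Cdca3 had 2.64, 5.89 and 3.64 in NP, 3.13, 10.5 and 8.96 at dpc8 and 1.21, 1.26 and 7.04 at dpc16. For Cdca3, the zone 3 values were 0.441, 9.24 and 1.81 in NP, 4.96, 1.45 and 1.05 at dpc8 and 2.02, 2.42 and 6.83 at dpc16. Cdca3 in zone 1 stood apart at dpc8 from both NP and dpc16.

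The chromosomal passenger complex, formed by AURKB, INCENP, survivin (Birc5) and borealin (Cdca8), corrects faulty attachments at the centromere and later marks the site of cleavage. Incenp in zone 1 was listed at 3.18, 4.23 and 1.34 FPKM in NP, at 12.4, 7.57 and 13.5 at dpc8 and at 2.32, 1.06 and 1.65 at dpc16. In zone 2, Incenp had 4.54, 1.27 and 8.88 in NP, 3.24, 5.12 and 3.81 at dpc8 and 2.23, 1.40 and 5.01 at dpc16. For Incenp, the zone 3 values were 1.61, 4.51 and 1.39 in NP, 6.54, 3.02 and 3.11 at dpc8 and 0.592, 2.30 and 3.09 at dpc16. Incenp stayed at 1.06 or more in every library except 1 of dpc16 zone 3. Birc5 in zone 1 was listed at 10.7, 0.646 and 0.157 FPKM in NP, at 18.7, 5.95 and 12.1 at dpc8 and at 0.515, 0 and 0.344 at dpc16. In zone 2, Birc5 had 0.503, 0.257 and 3.59 in NP, 7.79, 5.08 and 5.47 at dpc8 and 0, 0.244 and 7.57 at dpc16. For Birc5, the zone 3 values were 1.86, 5.47 and 0.466 in NP, 4.68, 1.56 and 0.401 at dpc8 and 1.19, 1.46 and 7.05 at dpc16. Birc5 was above every NP library at dpc8 in zone 2 but not in zone 1, where the Y-linked NP library had 10.7.

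Cenpa encodes the histone H3 variant of centromeres, and Ndc80, Nuf2, Spc24 and Spc25 form the NDC80 complex that grips the microtubule. Cenpa in zone 1 was listed at 15.2, 5.78 and 2.96 FPKM in NP, at 32.9, 21.8 and 13.1 at dpc8 and at 3.57, 2.43 and 7.33 at dpc16. In zone 2, Cenpa had 3.98, 5.43 and 5.42 in NP, 7.58, 13.6 and 8.07 at dpc8 and 3.82, 2.26 and 15.4 at dpc16. For Cenpa, the zone 3 values were 2.54, 4.38 and 4.99 in NP, 8.56, 4.90 and 3.19 at dpc8 and 4.36, 1.69 and 7.57 at dpc16. Cenpa was found in every library, and the highest values were those of replicates 1 and 2 of dpc8 zone 1. Spc25 in zone 1 was listed at 7.61, 4.13 and 2.50 FPKM in NP, at 13.2, 13.5 and 15.8 at dpc8 and at 12.3, 4.91 and 5.20 at dpc16. In zone 2, Spc25 had 6.83, 3.52 and 1.97 in NP, 7.35, 8.11 and 14.6 at dpc8 and 7.84, 7.43 and 5.13 at dpc16. For Spc25, the zone 3 values were 5.29, 10.2 and 3.46 in NP, 9.07, 5.81 and 5.29 at dpc8 and 15.0, 9.12 and 4.06 at dpc16. Spc25 differed from most of the set in that the Y-linked libraries of dpc8 and dpc16 were the lowest of their group in dpc8 zone 1, dpc16 zone 2 and dpc16 zone 3. Spc24 in zone 1 was listed at 4.36, 11.5 and 15.5 FPKM in NP, at 19.0, 15.3 and 11.4 at dpc8 and at 3.62, 1.68 and 1.98 at dpc16. In zone 2, Spc24 had 12.2, 10.3 and 1.83 in NP, 5.41, 4.69 and 14.0 at dpc8 and 0.849, 1.52 and 2.74 at dpc16. For Spc24, the zone 3 values were 7.60, 6.68 and 10.9 in NP, 5.19, 7.09 and 13.7 at dpc8 and 1.96, 2.58 and 8.93 at dpc16. Spc24 also had its own pattern, with NP values that overlapped those at dpc8 in every zone and with 8 of the 9 dpc16 libraries at 3.62 or less. Nuf2 in zone 1 was listed at 2.56, 0.211 and 0.532 FPKM in NP, at 5.88, 4.95 and 4.11 at dpc8 and at 0, 0 and 0 at dpc16. Nuf2, its partner in the complex, was at 0 in all 3 dpc16 libraries of zone 1.

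The kinesins of the set move chromosomes or slide spindle microtubules, and KIF20A and KIF23 work at the central spindle. Kif23 in zone 1 was listed at 6.78, 2.77 and 3.05 FPKM in NP, at 38.1, 1.01 and 5.29 at dpc8 and at 0.0689, 0 and 6.11 at dpc16. In zone 2, Kif23 had 2.27, 2.43 and 9.89 in NP, 4.99, 7.24 and 1.30 at dpc8 and 0.230, 1.55 and 10.9 at dpc16. For Kif23, the zone 3 values were 2.30, 5.55 and 0.810 in NP, 4.67, 3.02 and 0.758 at dpc8 and 0.335, 2.52 and 5.63 at dpc16. Kif23 in zone 1 at dpc8 ranged from 1.01 to 38.1, and its groups overlapped in every zone. Kif20a in zone 1 was listed at 8.11, 1.61 and 1.10 FPKM in NP, at 15.7, 5.09 and 8.96 at dpc8 and at 0.140, 1.26 and 1.23 at dpc16. In zone 2, Kif20a had 1.14, 1.61 and 3.38 in NP, 3.77, 8.39 and 3.69 at dpc8 and 0.806, 0.577 and 9.07 at dpc16. For Kif20a, the zone 3 values were 1.10, 6.29 and 0.569 in NP, 3.16, 2.25 and 0.283 at dpc8 and 0.947, 0.965 and 9.71 at dpc16. Kif20a was above all dpc16 libraries in the dpc8 libraries of zone 1, and above all NP libraries in those of zone 2. Kif2c in zone 1 was listed at 5.01, 1.74 and 0.250 FPKM in NP, at 5.10, 0.768 and 2.28 at dpc8 and at 0.0441, 0 and 0.314 at dpc16. In zone 2, Kif2c had 0.284, 0.459 and 0.0362 in NP, 1.37, 3.37 and 0.482 at dpc8 and 0.0389, 0.525 and 2.28 at dpc16. For Kif2c, the zone 3 values were 0, 9.95 and 0.207 in NP, 1.27, 0.312 and 0.0343 at dpc8 and 0.143, 0.391 and 2.58 at dpc16. Kif2c, a kinesin that takes microtubules apart, had Y-linked libraries of NP at 5.01 and 9.95 and was the gene with the smallest difference between dpc8 and NP in zone 1. Kif4 in zone 1 was listed at 1.93, 0.388 and 0.743 FPKM in NP, at 6.66, 1.71 and 1.46 at dpc8 and at 0.189, 0 and 0.0715 at dpc16. For Kif4, the zone 3 values were 0.291, 1.5 and 0.0935 in NP, 0.390, 0.0592 and 0.0469 at dpc8 and 0.584, 0.562 and 0.615 at dpc16. Kif4, the chromokinesin of chromosome arms, was lower in every dpc8 library of zone 3 than in any of dpc16, and higher in every dpc8 library of zone 1 than in any of dpc16. Kif11 in zone 1 was listed at 1.76, 0.669 and 0.419 FPKM in NP, at 5.50, 2.54 and 3.41 at dpc8 and at 0.353, 0.0575 and 0.630 at dpc16. In zone 2, Kif11 had 0.338, 0.332 and 0.154 in NP, 2.57, 2.71 and 1.77 at dpc8 and 0.0917, 0.145 and 2.28 at dpc16. Kif11, the motor that pushes the spindle poles apart, was higher in each dpc8 library than in any NP library in both zones.

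Among the spindle proteins, PRC1 bundles the antiparallel microtubules of the midzone, TPX2 activates Aurora A and starts microtubules near chromatin, and KNSTRN (kinastrin) sits at kinetochores and along the spindle. Prc1 in zone 1 was listed at 10.9, 4.72 and 2.15 FPKM in NP, at 17.3, 6.72 and 9.56 at dpc8 and at 0.118, 1.25 and 2.06 at dpc16. In zone 2, Prc1 had 3.60, 1.52 and 3.23 in NP, 10.4, 10.4 and 4.28 at dpc8 and 0.209, 0.604 and 10.03 at dpc16. For Prc1, the zone 3 values were 1.66, 5.22 and 1.07 in NP, 1.86, 3.98 and 0.156 at dpc8 and 1.03, 1.90 and 7.57 at dpc16. Prc1 in zone 2 did not overlap between dpc8 and NP, whereas in zone 1 the Y-linked NP library was above 2 of the dpc8 libraries. Tpx2 in zone 1 was listed at 8.52, 2.78 and 0.886 FPKM in NP, at 13.8, 4.67 and 6.11 at dpc8 and at 0.0585, 0.498 and 2.73 at dpc16. In zone 2, Tpx2 had 3.22, 1.91 and 1.20 in NP, 2.63, 5.71 and 3.02 at dpc8 and 0, 0.452 and 8.005 at dpc16. For Tpx2, the zone 3 values were 2.07, 6.65 and 0.211 in NP, 2.37, 1.01 and 0.395 at dpc8 and 1.11, 1.16 and 5.88 at dpc16. Tpx2 overlapped between dpc8 and NP in all zones. Knstrn in zone 1 was listed at 0.935, 0.822 and 0.0908 FPKM in NP, at 13.6, 10.3 and 9.99 at dpc8 and at 1.58, 0 and 0.0194 at dpc16. In zone 2, Knstrn had 1.07, 2.87 and 0 in NP, 8.35, 5.80 and 5.14 at dpc8 and 0.562, 0.292 and 5.99 at dpc16. For Knstrn, the zone 3 values were 0, 4.54 and 0.549 in NP, 1.62, 1.03 and 0.165 at dpc8 and 1.5, 1.02 and 5.07 at dpc16. Knstrn had the largest difference of the set between dpc8 and NP in zone 1, with dpc8 values of 9.99 to 13.6 and NP values under 1. Aspm in zone 1 was listed at 0.598, 0.223 and 0.225 FPKM in NP, at 2.44, 2.45 and 2.29 at dpc8 and at 0.152, 0.0274 and 0.452 at dpc16. Aspm, which acts at spindle poles, was low throughout, and its 3 dpc8 zone 1 libraries lay between 2.29 and 2.45.

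For the end of division, ECT2 and RACGAP1 turn on the GTPase RhoA at the midzone, and anillin (Anln) ties the contractile ring together. Ect2 in zone 1 was listed at 6.87, 0.936 and 1.54 FPKM in NP, at 13.1, 7.20 and 10.02 at dpc8 and at 0.395, 0.275 and 2.44 at dpc16. In zone 2, Ect2 had 1.54, 2.35 and 6.13 in NP, 4.33, 6.62 and 8.88 at dpc8 and 1.05, 0.872 and 5.09 at dpc16. For Ect2, the zone 3 values were 4.79, 10.03 and 2.04 in NP, 5.19, 3.82 and 2.84 at dpc8 and 4.10, 1.61 and 6.71 at dpc16. Ect2 in zone 1 was higher at dpc8 than in any NP or dpc16 library. Racgap1 in zone 1 was listed at 7.00, 1.73 and 0.539 FPKM in NP, at 20.5, 7.49 and 8.29 at dpc8 and at 1.38, 0.0486 and 0.250 at dpc16. In zone 2, Racgap1 had 1.01, 1.57 and 1.51 in NP, 2.59, 6.80 and 3.82 at dpc8 and 3.65, 0.162 and 9.25 at dpc16. For Racgap1, the zone 3 values were 1.78, 6.10 and 0.860 in NP, 1.52, 1.72 and 0.661 at dpc8 and 2.25, 0.820 and 7.52 at dpc16. Racgap1 shared that pattern in zone 1, and in zone 2 its dpc8 libraries lay above those of NP but overlapped those of dpc16.

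Chromosome structure is served by topoisomerase II alpha (Top2a), which untangles DNA, by the condensin subunits Ncapd2 and Ncapg, and by Ki-67 (Mki67), the coat of mitotic chromosomes and the standard stain for cycling cells. Mki67 in zone 1 was listed at 4.09, 1.46 and 0.565 FPKM in NP, at 22.9, 10.4 and 14.1 at dpc8 and at 0.0876, 0.709 and 1.82 at dpc16. In zone 2, Mki67 had 2.17, 1.59 and 0.855 in NP, 6.63, 5.53 and 5.09 at dpc8 and 2.04, 0.474 and 4.002 at dpc16. For Mki67, the zone 3 values were 0.934, 3.03 and 0.669 in NP, 7.21, 1.33 and 0.924 at dpc8 and 2.97, 1.39 and 12.3 at dpc16. Mki67 at dpc8 did not overlap with NP or with dpc16 in zones 1 and 2, and in zone 3 its highest value was that of the Y-linked dpc16 library. Top2a in zone 1 was listed at 11.6, 1.84 and 0.978 FPKM in NP, at 25.7, 10.1 and 16.7 at dpc8 and at 0.0573, 1.43 and 1.70 at dpc16. In zone 2, Top2a had 2.81, 2.57 and 2.64 in NP, 7.58, 12.3 and 8.62 at dpc8 and 0.856, 0.687 and 9.38 at dpc16. For Top2a, the zone 3 values were 1.14, 11.5 and 0.985 in NP, 5.24, 2.35 and 0.999 at dpc8 and 1.26, 0.819 and 11.9 at dpc16. In zone 2, Top2a at dpc8 exceeded every NP library. Ncapd2 in zone 1 was listed at 65.8, 14.8 and 15.1 FPKM in NP, at 62.9, 35.05 and 24.7 at dpc8 and at 17.1, 13.4 and 26.2 at dpc16. In zone 2, Ncapd2 had 11.3, 12.7 and 28.0 in NP, 24.6, 45.9 and 22.0 at dpc8 and 15.8, 15.7 and 66.6 at dpc16. For Ncapd2, the zone 3 values were 24.4, 34.7 and 15.9 in NP, 14.5, 27.6 and 15.3 at dpc8 and 16.1, 17.99 and 52.2 at dpc16. Ncapd2 was the most abundant of the set and never fell under 11.3 FPKM, and its groups overlapped in all zones. Exons of Ncapd2 cover the small nucleolar RNA gene Scarna10 over 237 bases on the same strand, and the reads of both cannot be separated here.

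FOXM1 and B-MYB (Mybl2) are the transcription factors that bind many G2 and M phase genes. Foxm1 in zone 1 was listed at 4.78, 0.804 and 0.767 FPKM in NP, at 9.46, 2.22 and 2.74 at dpc8 and at 0.189, 0.560 and 2.13 at dpc16. In zone 2, Foxm1 had 0.402, 0.443 and 1.20 in NP, 2.41, 6.49 and 2.96 at dpc8 and 0.273, 1.23 and 4.04 at dpc16. For Foxm1, the zone 3 values were 0, 3.54 and 0.294 in NP, 1.68, 1.76 and 0.197 at dpc8 and 0.300, 0.270 and 6.73 at dpc16. Foxm1 was above NP in every dpc8 library of zone 2, and in zone 1 it was above every dpc16 library. Mybl2 in zone 1 was listed at 0.902, 1.02 and 0.832 FPKM in NP, at 5.03, 1.06 and 0 at dpc8 and at 0.163, 0 and 0.122 at dpc16. In zone 2, Mybl2 had 2.30, 0.151 and 0 in NP, 0.351, 0.493 and 0.0859 at dpc8 and 0, 0.300 and 2.66 at dpc16. For Mybl2, the zone 3 values were 0.859, 0.295 and 0.0144 in NP, 0, 0.759 and 0.177 at dpc8 and 0.378, 0.0332 and 3.52 at dpc16. Mybl2 showed no such order, with a single dpc8 zone 1 library at 5.03 and another at 0.

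The first comparison asks how far the division genes differed between dpc8 and NP. In zone 1 all 48 fitted differences were above 0, as were 51.7% of those of all genes, with a median log2 difference of 1.29 against 0.01 for all 12952 genes tested. None of the 48 passed the threshold (limma, Benjamini-Hochberg adjusted p under 0.05 over all genes), which 0.0309% of all genes did, while 23 had an unadjusted p under 0.05 in the higher direction, against 1.96% of all genes. Knstrn had the largest difference, 2.96 ± 0.65 (SE) with an adjusted p of 0.291, followed by Mki67 with 2.57 ± 0.62 and 0.491 and Cdc20 with 2.54 ± 0.80 with an adjusted p of 1.0. The smallest were those of Kif2c (0.26 ± 0.73 with an adjusted p of 1.0), Mybl2 (0.27 ± 0.59 with an adjusted p of 1.0) and Cdc25c (0.30 ± 0.47 with an adjusted p of 1.0). For 16 of the 48 genes, all 3 dpc8 libraries lay above all 3 NP libraries, which held for 3.60% of all genes. Without the Y-linked libraries, which left 2 against 2, 38 genes were separated in this way, against 17.9% of all genes. The 16 were Ccnb1, Ccnb2, Pbk, Cdc20, Cdca3, Aurkb, Incenp, Cenpf, Nuf2, Spc25, Kif11, Aspm, Knstrn, Ect2, Racgap1 and Mki67.

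By role, the median difference in zone 1 was 2.14 for the 3 genes of the anaphase-promoting complex and mitotic exit, 1.77 for CDK1 and its cyclins, 1.68 for the passenger complex and for cytokinesis, 1.49 for centromere and kinetochore and 1.34 for chromosome structure. It was 1.26 for the kinases, 1.07 for the checkpoint, 1.0 for the spindle proteins, 0.69 for the kinesins and 0.60 for the transcription factors. None of the cell type markers was called: the 10 connective tissue markers had a median difference of 0.03, the 10 Kupffer cell markers -0.14, the 7 leukocyte markers tested -0.22 and the 9 hepatocyte markers -0.38. Without the Y-linked libraries, of which each group had 1, the median of the 48 genes was 1.42, and 3 genes (Aspm, Ccnb2 and Nuf2) passed the threshold, against 0.0695% of all genes. With the connective tissue marker level as a covariate 5 passed (Aspm, Ccnb2, Kif11, Knstrn and Mki67), against 0.154% of all genes. With libraries weighted by their scatter 4 did (Aspm, Ccnb2, Knstrn and Mki67), against 0.170%.

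In zone 2, 45 of the 48 differences between dpc8 and NP were above 0 (50.3% for all genes), with a median of 0.93 against 0.00 for all genes. None passed the threshold, against 0.00772% of all genes, and 11 had an unadjusted p under 0.05, all higher, against 1.98% of all genes. For 30 of the 48 genes, every dpc8 library lay above every NP library, against 4.29% of all genes. Kif11 had the lowest p, with 1.39 ± 0.40 with an adjusted p of 0.863, and the widest difference was that of Knstrn, 1.87 ± 0.65 with an adjusted p of 0.904. The 10 connective tissue markers had a median of 1.26 in this comparison with none called, which came with the Y-linked library of dpc8; their part in the result was not tested. Without that library, the same 30 genes kept apart, against 8.42% of all genes, and the median was 0.69.

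In zone 3, 15 of the 48 differences were above 0, against 46.2% of all genes, and the median was -0.16, none passed the threshold (0.0154% of all genes did), and none had an unadjusted p under 0.05 (2.74% of all genes did). No gene was separated in either direction, against 4.74% of all genes as higher and 5.07% as lower. Without the Y-linked library of NP the median was 0.33, with 36 differences above 0, and 7 genes were separated as higher, against 9.23% of all genes. Averaged over the 3 zones, 47 differences were above 0 (49.9% for all genes) with a median of 0.66. None was called, against 0.108% of all genes, and 20 had an unadjusted p under 0.05, all higher, against 2.93% of all genes. That average gave 9 calls without the Y-linked libraries (0.332% of all genes), 8 with library weights (0.556%), 6 with the connective tissue covariate (0.456%) and 2 after quantile normalization (0.154%).

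**Figure D3:**
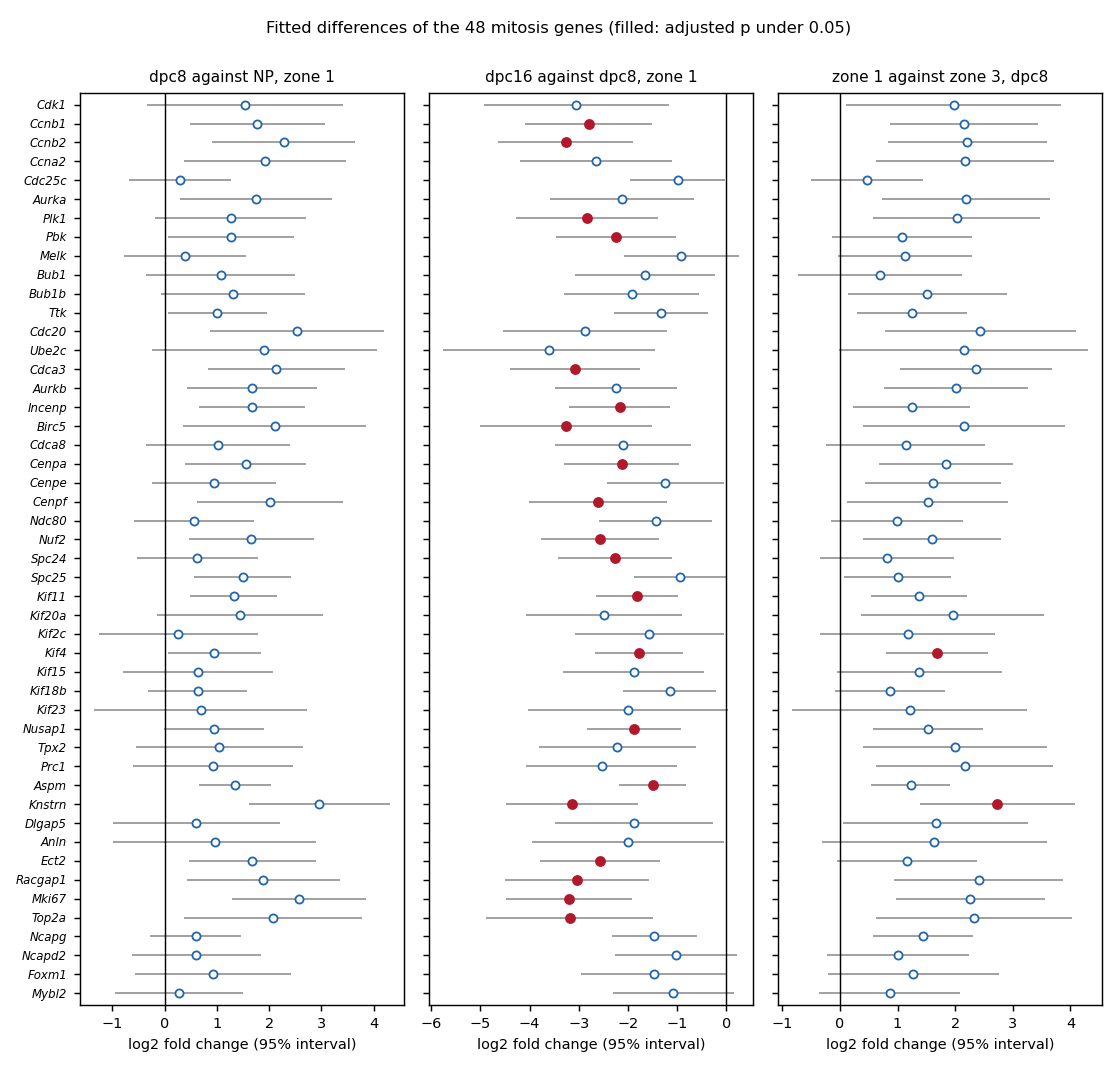
Fitted log2 differences (horizontal axes, on the log2(FPKM + 1) scale) of the 48 mitosis genes (rows) with 95% intervals, for dpc8 against NP in zone 1, dpc16 against dpc8 in zone 1, and zone 1 against zone 3 at dpc8. Filled points passed the adjusted threshold: none in the first panel, 20 in the second and 2 in the last. All 48 points lie above 0 in the first and last panels and below 0 in the second, and Nuf2 and Cdc25c are compared in the second with libraries that are all at 0.

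From dpc8 to dpc16, 20 of the 48 mitosis genes fell in zone 1 and none rose. All 48 fitted differences were negative, while 45.3% of those of all genes were above 0, and the median was -2.13 against -0.05 for all genes. The 20 compare with 0.741% of all genes called as lower and 2.01% in either direction, and between 2 and 11 were called without single libraries. Every dpc16 library lay under every dpc8 library for 44 of the 48 genes, against 10.1% of all genes, and the exceptions were Melk, Kif23, Ncapd2 and Mybl2. Without the Y-linked library of dpc8, 44 genes were separated, against 16.6% of all genes. An unadjusted p under 0.05 was reached by 43 genes, against 6.60% of all genes in the lower direction.

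Mki67 fell by 3.20 on the log2 scale (SE 0.62, limma adjusted p = 0.00746) and Ccnb2 by 3.27 (SE 0.66, 0.0110). Cdca3 fell by 3.08, Knstrn by 3.14, Racgap1 by 3.03, Birc5 by 3.26 and Top2a by 3.19, with adjusted p between 0.0125 and 0.0463. Of the others called, Plk1, Ccnb1, Cenpf and Ect2 fell by 2.57 to 2.83, Spc24, Pbk, Incenp and Cenpa by 2.13 to 2.26, and Nusap1, Kif11, Kif4 and Aspm by 1.5 to 1.88. Nuf2 was called as well, and no fold is given for it because all 3 dpc16 libraries are listed at 0. Ube2c had the widest fitted difference of the set, -3.60 ± 1.04, and did not pass with an adjusted p of 0.0829. On the scale with a pseudocount of 0.1 in place of 1 the median difference was -3.61, which shows how the scale compresses low values.

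All roles but the checkpoint kinases and the transcription factors held called genes. In zone 1 the counts of genes that fell were 4 of 7 for centromere and kinetochore, 3 of 6 for spindle proteins, 2 of 3 for cytokinesis, 2 of 4 each for the kinases, the passenger complex and chromosome structure, 2 of 5 for CDK1 and its cyclins, 2 of 7 for kinesins and 1 of 3 for the anaphase-promoting complex. The median of the 3 checkpoint genes was -1.65 and that of the transcription factors -1.28.

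Hepatocyte markers went the other way in the same libraries: 4 of 9 rose, with a median difference of 1.48. The 10 connective tissue markers summed to between 177 and 3478 FPKM in dpc8 zone 1 and to between 112 and 282 in dpc16 zone 1, with a median difference of -1.64 and none called. Of the 8 erythroid markers tested 1 rose (Alas2) and none fell, and no Kupffer cell, leukocyte or endothelial marker was called. The 11 erythroid markers with a value, tested or not, summed to between 105 and 302 FPKM in dpc8 zone 1 and to between 92.4 and 211 in dpc16 zone 1, and their part in the result was not tested. With the connective tissue level as a covariate 22 of the 48 mitosis genes fell (2.83% of all genes were called), 18 of them among the 20. Without the Y-linked library of dpc8 zone 1 and its 5 counterparts 29 fell (4.38% of all genes were called), 19 of them among the 20 (Cenpf was lost), with a median of -1.79. The part of the hepatocyte markers in the result was not tested.

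The count of called genes depended on single libraries, as each group held 3. Without replicate 1, 2 or 3 of dpc8 zone 1 there were 2, 10 and 5 calls, of which 2, 9 and 5 were among the 20, while 1.10%, 1.01% and 0.926% of all genes were called. Without replicate 1, 2 or 3 of dpc16 zone 1 there were 2, 3 and 11, of which 2, 3 and 9 were, with 0.695%, 0.695% and 1.62% of all genes. The genes called there and not among the 20 were Ncapg, Aurkb and Cdc20. The fitted differences of the called genes kept their sign in all of these fits. Mki67 and Knstrn were each called in 5 of the 6 fits and Ccnb2 in 4.

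In zone 2, 47 of 48 differences between dpc16 and dpc8 were negative (50.7% of all genes were above 0), with a median of -0.87 against 0.01 for all genes. None passed the threshold, against 1.51% of all genes, and 7 had an unadjusted p under 0.05, all lower, against 6.28% of all genes. Nusap1 came nearest, with -1.66 ± 0.46 with an adjusted p of 0.0748. Spc24, Nusap1 and Mki67 were the 3 genes with every dpc16 library under every dpc8 library, against 6.96% of all genes. The Y-linked library of dpc16 zone 2 was the highest of its group for 47 of the 48 genes. Without the Y-linked libraries, which left 2 against 2, 43 genes were separated (23.2% of all genes), the median was -1.15, and 11 were called against 3.91% of all genes. Leaving out replicate 3 of dpc16 zone 2 alone gave 3 calls, against 2.11% of all genes, and leaving out any other library of both groups gave none, against 0.494% to 1.60% of all genes.

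In zone 3, 38 of 48 differences between dpc16 and dpc8 were positive (54.4% for all genes), with a median of 0.27 against 0.05 for all genes, and without the Y-linked libraries the median was -0.23. None was called, against 1.37% of all genes, and none had an unadjusted p under 0.05 (12.4% of all genes had). Kif4 was the only one with every dpc16 library above every dpc8 library, against 11.1% of all genes. Separation without those libraries was found for 2 genes as higher and 7 as lower, against 19.1% and 19.7% of all genes.

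Averaged over the zones, 15 of the 48 genes fell from dpc8 to dpc16 and none rose, against 11.1% of all genes called in either direction and 5.69% as lower. Spc24 came first, with -1.62 ± 0.32 with an adjusted p of 0.00184. Nusap1, Incenp, Ccnb2, Kif11 and Ect2 fell by 0.91 to 1.53, and these 6 genes stayed called in all 18 fits that left out 1 library. Mki67, Knstrn, Nuf2, Cdca3, Pbk, Top2a, Cenpa, Ccnb1 and Birc5 fell as well and lost the call in some of those fits. The number called ran from 6, without replicate 2 of dpc16 zone 2 or of dpc16 zone 3, to 27, without replicate 3 of dpc16 zone 2, and was 23 without replicate 3 of dpc16 zone 3. It was 7 without replicate 1 of dpc16 zone 2 or of dpc8 zone 3, 8 without replicate 2 of dpc8 zone 2 and 9 without replicate 1 of dpc16 zone 1 or of dpc16 zone 3. Over these 18 fits 8.22% to 13.4% of all genes were called. This fit takes the zone libraries of a stage as independent, although those with the same number went together at dpc16 (correlations of their deviations of 0.26 to 0.86). When the values were first averaged over the zones of each stage and replicate number, so that each stage had 3 values, 2 of the 15 were called, Spc24 (adjusted p = 0.0137) and Incenp (0.0308), against 2.14% of all genes. Without all 6 Y-linked libraries 37 fell, against 18.7% of all genes called. In the fit by library, 7 of the 10 Kupffer cell markers fell too and 5 of the 9 hepatocyte markers rose.

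**Figure D4:**
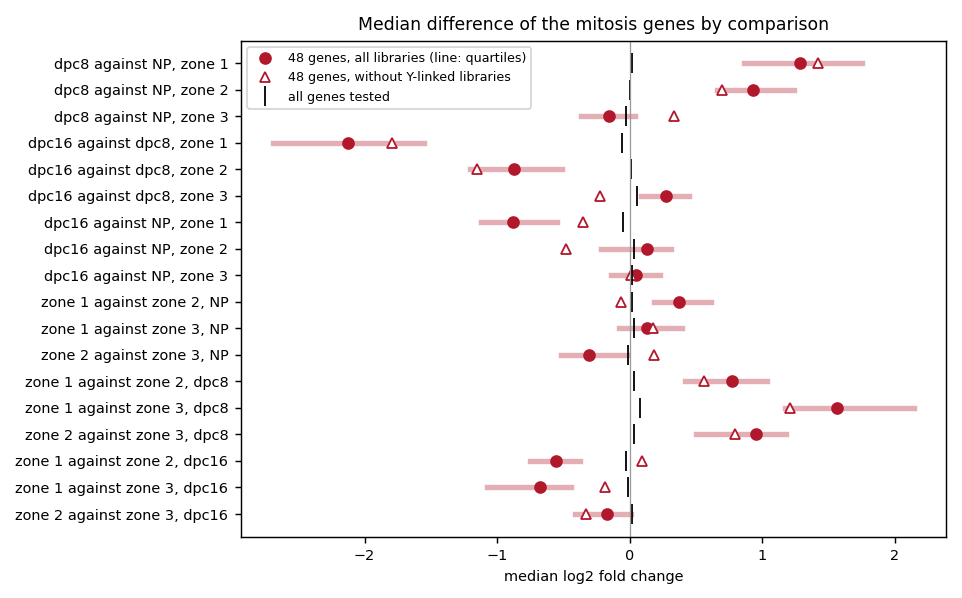
Median fitted log2 difference of the 48 mitosis genes (horizontal axis) in each comparison of stages within a zone and of zones within a stage (rows). Filled circles use all libraries, with a line from the lower to the upper quartile of the genes, open triangles leave out the Y-linked libraries, and ticks give the median of all genes tested. The circles reach 1.29 for dpc8 against NP in zone 1, 1.56 for zone 1 against zone 3 at dpc8 and -2.13 for dpc16 against dpc8 in zone 1, and the triangles keep those directions.

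Against NP, the fitted differences of dpc16 were mostly negative in zone 1, turned negative without the Y-linked libraries in zone 2 and lay around 0 in zone 3. In zone 1, 47 of 48 differences were negative (45.6% of all genes were above 0) with a median of -0.88 against -0.05 for all genes. None passed the threshold, against 1.37% of all genes, and 4 had an unadjusted p under 0.05, all lower, against 4.54% of all genes. For 14 genes every dpc16 library lay under every NP library, against 8.01% of all genes, and the same 14 did so without the Y-linked NP library (13.5% of all genes), when the median was -0.35. In zone 2 none was called, against 2.66% of all genes, and 1 (Spc24) had an unadjusted p under 0.05 as lower, against 9.47% of all genes, with a median of 0.13. No gene there had every dpc16 library under every NP library, against 9.59% of all genes, but without the Y-linked library, which left 2 against 3, 26 did, against 17.4% of all genes, and the median was -0.48. In zone 3 none was called, against 1.32% of all genes, none had an unadjusted p under 0.05 (11.5% of all genes had), and the median was 0.05 (0.01 without the Y-linked libraries). Ncapg was the only gene there with every dpc16 library above every NP library, against 7.84% of all genes. When those libraries were left out, 2 against 2, 11 genes were separated as higher and 5 as lower, against 22.3% and 25.1% of all genes.

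Averaged over the zones, 1 of the 48 genes fell between NP and dpc16, against 11.8% of all genes called and 6.15% as lower. It was Spc24, with -1.38 ± 0.32 with an adjusted p of 0.00614, and it was called in all 11 settings tried and in all 18 fits without 1 library. With the zones averaged within replicate numbers its adjusted p was 0.0236. Its partner Spc25 had 0.57 ± 0.26 with an adjusted p of 0.173 in the other direction. With the library weights, and likewise without the Y-linked libraries, Plk1 and Ube2c were also lower and Spc25 higher, 4 genes in all; with the weights 22.4% and without those libraries 16.6% of all genes were called. The comparisons of each pregnant stage with NP share the NP libraries, and those with dpc8 share the dpc8 libraries, so that their values are not independent.

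At dpc8, zone 1 stood above zone 3. All 48 differences between these zones were positive (56.7% for all genes), with a median of 1.56 against 0.08 for all genes. Knstrn was higher in zone 1 by 2.73 ± 0.65 (adjusted p = 0.0298) and Kif4 by 1.68 ± 0.43 (adjusted p = 0.0469), and these 2 were called, against 1.61% of all genes. For 36 of the 48 genes every zone 1 library lay above every zone 3 library, against 12.8% of all genes, and for the same 36 this held without the Y-linked library (18.2%). An unadjusted p under 0.05 was reached by 31 genes, all higher in zone 1, against 6.69% of all genes. The 6 biliary markers had a median of 2.02 with 1 called, and the connective tissue markers one of 1.48 with 1 called in the other direction; their part in the result was not tested. Without the Y-linked libraries 14 genes were called, among them Knstrn but not Kif4 (2.76% of all genes were called), and the median was 1.21.

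These calls moved with single libraries too, in fits that called 0.888% to 1.42% of all genes. None was called without replicate 1 of dpc8 zone 1 or without replicate 2 or 3 of dpc8 zone 3. Without replicate 2 of dpc8 zone 1 both calls were lost and Ncapg was called, without replicate 3 of dpc8 zone 1 only Kif4 was called, and 5 (Knstrn and 4 others) were called without replicate 1 of dpc8 zone 3, whose average of the 48 genes was 1.74 against 1.29 and 0.80. With the connective tissue covariate 1 gene (Knstrn) was called, against 2.18% of all genes.

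Zone 2 at dpc8 lay between the other zones. Zone 1 exceeded zone 2 in 47 of 48 fitted differences (54.3% for all genes) with a median of 0.77, none was called (0.124% of all genes were), and 15 genes were separated against 4.42% of all genes. Zone 2 exceeded zone 3 in 46 of 48 (53.5% for all genes) with a median of 0.95, none was called (0.347% of all genes were), 7 had an unadjusted p under 0.05 against 2.04% of all genes, and 21 genes were separated against 6.64% of all genes. Among the 21 other libraries, without the Y-linked ones, 28 genes were separated between zones 1 and 2, against 18.8% of all genes, and 21 between zones 2 and 3, against 11.3%.

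At dpc16 zone 1 stood under zones 2 and 3 in sign, without calls, and its place under zone 2 depended on the Y-linked libraries. Zone 1 was under zone 3 in 46 of 48 fitted differences (48.3% of all genes were above 0), with a median of -0.68, or -0.18 without the Y-linked libraries. None was called, against 1.55% of all genes, 2 had an unadjusted p under 0.05 against 3.07% of all genes, and 8 genes were separated as lower against 6.39% of all genes. Between zones 1 and 2 none was called, against 0.139% of all genes, and the median was -0.56, or 0.09 without the Y-linked libraries. Within dpc16 zone 1 had the lowest mean for 43 of the 48 genes, and without those libraries zone 2 had it for 26 and zone 1 for 18. In NP mice no gene was called between any 2 zones, against 1.34% of all genes between zones 1 and 3, 0.154% between zones 1 and 2 and 0.401% between zones 2 and 3. Between zones 1 and 3 of NP, 1 gene had an unadjusted p under 0.05, against 4.04%. The median between zones 1 and 3 was 0.13 in NP.

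Whether the change with stage differed between zones was tested by the difference of differences. From dpc8 to dpc16, zone 1 moved further down than zone 3 in all 48 genes (46.7% of all genes were above 0), by a median of 2.2 on the log2 scale, and 32 had an unadjusted p under 0.05, against 3.20% of all genes. None passed the adjusted threshold, which 0.0463% of all genes did. Knstrn had -3.91 ± 0.92 with an adjusted p of 0.239 and Mki67 -3.79 ± 0.88 with an adjusted p of 0.239. Between NP and dpc8, zone 1 moved further up than zone 3 in all 48 genes (52.9% for all genes), by a median of 1.35, with 17 at an unadjusted p under 0.05 (1.58% of all genes) and none called, against 0% of all genes.

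The 48 genes varied together across the libraries, apart from a few. The correlation of each gene with the mean of the others over the 27 libraries had a median of 0.87, was over 0.8 for 38 genes and under 0.5 for 2, which were Spc24 (0.37) and Spc25 (0.36). Over the 21 libraries other than the Y-linked ones the median was 0.82, 25 genes were over 0.8 and 4 under 0.5, with the lowest at 0.08 for Mybl2. Libraries share depth and tissue composition, and these correlations describe the set without a test.

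**Figure D5:**
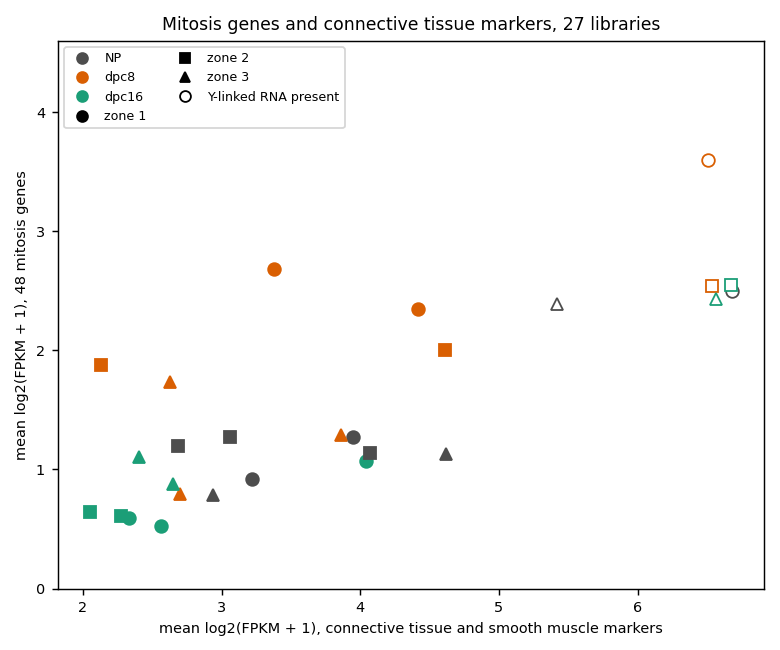
Mean log2(FPKM + 1) of the 48 mitosis genes (vertical axis) against that of 10 connective tissue and smooth muscle markers (horizontal axis) in the 27 libraries, with colour for the stage and shape for the zone. Open symbols are the 6 Y-linked libraries, which lie at 5.42 to 6.68 on the horizontal axis, to the right of all others. Among the filled symbols, the 2 dpc8 zone 1 libraries are the highest, at 2.35 and 2.69.

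A list of 70 further genes of mitosis, of which 66 passed the filter, was followed in the same way. From dpc8 to dpc16 in zone 1, 11 of the 66 fell and none rose, with a median difference of -1.30, against 0.741% of all genes called as lower. The lowest p belonged to Cdkn3, which encodes a phosphatase that acts on CDK2, with a fall of 2.86 (adjusted p = 8.24e-04), to Depdc1b with one of 1.30 (0.00604) and to Hmmr, a spindle-associated protein, with one of 2.45 (0.00924). Averaged over the zones 13 fell and 2 rose in the fit that takes the zone libraries as independent, and the latter were Ccnf (1.28, adjusted p = 0.00170), which encodes the F-box protein cyclin F, and Mis12 (0.74, 0.0301), a kinetochore subunit. Of all genes 5.69% fell and 5.37% rose in this average. Between dpc8 and NP in zone 1 none of the 66 was called by limma and 22 had an unadjusted p under 0.05 as higher, against 1.96% of all genes, with a median of 0.78. At dpc8, 5 of them (Cdca5, Ckap2l, Cdkn3, Depdc1b and Hmmr) were higher in zone 1 than in zone 3, against 1.61% of all genes called in either direction. Of 43 genes of DNA replication, none was called from dpc8 to dpc16 in zone 1 with 24 at an unadjusted p under 0.05 as lower (6.60% of all genes) and a median of -0.98, and 8 fell in the same average over the zones. With the zones averaged within replicate numbers, none of the 66 and none of the 43 was called from dpc8 to dpc16, against 2.14% of all genes.

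Some values are uncertain for reasons of annotation. Exons of 15 of the 48 genes overlap those of another gene, 12 of them on the opposite strand, as with Kif20a and Cdc23 over 1271 bases, Ncapg and Lcorl over 944, Prc1 and Rccd1 over 911, and Kif4 and Pdzd11 over 832. Whether reads were counted by strand is not given in the sources used here, so that reads from both partners cannot be told apart. Knstrn shares 123 bases with the antisense gene Gm14091, and Top2a covers the small nucleolar RNA gene Gm23451 over 122 bases on the same strand.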

How the data were processed

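RNA of 27 laser-microdissected liver samples was measured, 9 groups of stage and zone with 3 libraries each, mapped to groups by the sample titles. The deposited values are FPKM as the authors computed them: ribosomal RNA was depleted, reads were trimmed with cutadapt, aligned to mm10 with HISAT2 2.1.0 and kept where uniquely mapped, and Cuffdiff of Cufflinks 2.2.1 gave the FPKM of protein-coding genes. Depth was estimated from the steps between low FPKM values, of which 92.0% to 98.0% per library lay within 0.1 of a whole multiple. Reads that match near-identical gene copies equally well were therefore not counted.

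The 12952 genes that reached 1 FPKM in 3 or more libraries were tested on log2(FPKM + 1) with limma 3.58.1 in R 4.3.3, with a mean for each of 9 groups, an intensity trend and robust moderation. All tests were two-sided, Benjamini-Hochberg adjustment ran over all genes tested in a comparison, and the threshold was 0.05. The procedure was tested on simulated data.

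The 48 genes and all lists of other genes and markers were chosen with earlier results of these data known. Genes given with values in every library were the 2 with the highest mean FPKM in each of 11 roles, those called between a pregnant stage and NP within a zone (none), and the 3 largest and 3 smallest differences between dpc8 and NP in zone 1. From the other lists, up to 3 genes per direction were named by p.

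Marker lists covered hepatocytes (9 of 10 symbols found), connective tissue (10), stellate cells (9), endothelium (10), Kupffer cells (10), leukocytes (12, of which 7 passed the filter), erythroid cells (11, of which 8 passed), bile ducts (7, of which 6 passed) and zones 1 and 3 (10 each). Beside the values given in the comparisons, the median of the 9 stellate cell markers between dpc16 and dpc8 in zone 1 was 0.15 with none called.

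Same-numbered libraries of different zones were checked for deviations in common after subtracting the mean of each group. The 9 correlations at dpc16 were each over 0.1 (0.26 to 0.86), against 5 of 9 at dpc8 and 4 of 9 in NP. Between same-numbered libraries of different stages 25 of 81 were over 0.1, and the highest was 0.68. The value of 0.86 joined 2 Y-linked libraries. Whether the numbers pair the libraries was not tested, and the labels do not say what a number stands for. The tests had no replicate block; fits with one were alternatives.

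Alternatives were another pseudocount (0.1), other filters, only the groups compared, quantile and median ratio scaling, limma array weights, a replicate block, and leaving out each library. Leaving out the 6 Y-linked libraries, the connective tissue covariate and averaging the zones within replicate numbers were chosen after seeing the data. Gene positions and exon overlaps came from another GENCODE release than the study's, on the same build, and promoters from RefSeq on GRCm38.p6.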

Additional observations from a re-analysis of the deposited data

Results flagged for a closer look

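Kif4 was marked for a closer look because its libraries moved in opposite directions in zones 1 and 3 from dpc8 to dpc16: every dpc16 library lay under every dpc8 library in zone 1 and above every one in zone 3. The difference between the zones was -2.23 ± 0.61 on the log2 scale, with an unadjusted p of 0.00132 and a limma adjusted p of 0.438, so that it did not pass the threshold. Its zone 3 values were all under 1 FPKM at both stages. Of all genes, 10.1% were separated as lower in zone 1 and 11.1% as higher in zone 3. Neither separation on its own therefore sets Kif4 apart from other genes, and the share of all genes with both is not given here.

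Ncapg was marked for the same reason between NP and dpc16, with every dpc16 library lower in zone 1 and higher in zone 3. The difference between the zones was -1.28 ± 0.59 (limma adjusted p = 0.993) and did not pass the threshold. Among all genes, 8.01% were separated as lower in zone 1 and 7.84% as higher in zone 3, so that neither separation on its own sets Ncapg apart.

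The 4 Y-linked genes are among the genes tested, and their sum picked the libraries left out in some fits. Their FPKM summed to 15.4 in replicate 1 of NP zone 1, 20.5 in replicate 1 of dpc8 zone 1, 16.1 in replicate 2 of dpc8 zone 2, 23.2 in replicate 3 of dpc16 zone 2, 7.92 in replicate 2 of NP zone 3 and 16.6 in replicate 3 of dpc16 zone 3. These libraries were the highest of their group for 43, 45, 36, 47, 43 and 45 of the 48 mitosis genes.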

How the results depend on the processing

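With 3 libraries per group, FPKM in place of counts and many values under 1, the number of genes called moved more than the differences did. The medians over the 48 genes stayed within their pooled spread between libraries (SD 0.78) in all 270 values without 1 library and in 309 under other settings, and moved by more in the 12 that follow. With a pseudocount of 0.1 they were -1.88 for dpc16 against NP in zone 1, -3.61 and -1.81 for dpc16 against dpc8 in zones 1 and 2, 2.42 and -1.67 for zone 1 against zone 3 at dpc8 and dpc16, -2.13 for the difference between zones 1 and 3 in dpc16 against NP, and -4.06 and -2.05 for the differences of zones 1 and 2 from zone 3 in dpc16 against dpc8. With the connective tissue covariate the difference between zones 1 and 3 was -1.41 (dpc16 against dpc8) and that between zones 2 and 3 was 0.32 (dpc8 against NP). Without the Y-linked libraries the difference between zones 1 and 2 was 0.21 (dpc16 against NP) and -0.53 (dpc16 against dpc8). The spread of 0.78 is wider than many of the medians, so that a median could change sign and still count as within it. Without the Y-linked libraries this happened in zone 3 for dpc8 against NP and dpc16 against dpc8. It also happened for zone 1 against zone 2 at dpc16.

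Calls for dpc8 against NP in zone 1 were 4 with array weights, 3 without the Y-linked libraries and 5 with the covariate, and in the average over zones 8, 9 and 6, with 2 after quantile normalization. For dpc16 against NP, array weights gave 1 in zone 1, 1 in zone 2 and 4 in the average, and leaving out the Y-linked libraries gave 1 in zone 1 and 4 in the average. Leaving out single libraries gave 0 to 1 in zone 2 (1 without replicate 3 of NP zone 2), against 1.49% to 2.5% of all genes. For dpc16 against dpc8, zone 1 had 13 without a filter and 32 with array weights (2 to 11 without single libraries). Zone 2 had 1 with quantile normalization, 17 with array weights, 11 without the Y-linked libraries and 2 with the covariate (0 to 3 without single libraries), zone 3 had 1 with array weights, and the average had 36 with array weights and 37 without the Y-linked libraries (6 to 27 without single libraries). For zone 1 against zone 3 at dpc8 there were 0 with a pseudocount of 0.1, 1 without a filter, 1 with a filter on the mean, 1 with the covariate, 25 with array weights and 14 without the Y-linked libraries (0 to 5 without single libraries). With the zones averaged within replicate numbers, dpc16 against dpc8 had 2 calls in the average, Spc24 and Incenp (2.14% of all genes). Zone 2 against zone 3 at dpc8 had 2 with array weights, and the difference between zones 1 and 3 in dpc16 against dpc8 had 6. Array weights raised the share of all genes called as well, to 7.77%, 7.67% and 12.1% for dpc16 against dpc8 in zones 1, 2 and 3, 27.2% in the average, 5.15%, 8.5% and 22.4% for dpc16 against NP in zones 1 and 2 and the average, 6.6% and 0.888% for zones 1 and 2 against zone 3 at dpc8, and 0.317% for the difference between zones 1 and 3. Without a filter 1.3% of all genes were called for dpc16 against dpc8 in zone 1 and 1.21% for zone 1 against zone 3 at dpc8, with a filter on the mean 1.57% for the latter and with a pseudocount of 0.1 1.43%. In zone 2 between dpc16 and dpc8, 1.51% were called after quantile normalization and 5.82% with the covariate. Without the Y-linked libraries 2.92% were called for dpc16 against NP in zone 1. The cause was not tested.

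The replicate block gave 16 calls for dpc16 against dpc8 in zone 1 (2.1% of all genes) and 1 for zone 1 against zone 3 at dpc8 (1.68%), and the block within stage gave 18 for the latter (3.54%) and 1 (Mki67, 0.0695%) for the difference between zones 1 and 3 in dpc16 against dpc8. It changed no call between zones at dpc16, where same-numbered libraries deviated together.

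Signs of small differences turned for dpc8 against NP in zone 1: Mybl2 had -0.27 with a pseudocount of 0.1, -0.18 with array weights, -0.42 without the Y-linked libraries and -0.42 to 0.88 without single libraries, Kif2c -0.31 to 0.83 and Cdc25c -0.0504 to 0.54. Quantile normalization moved the median of all genes by -0.12 for zone 1 against zone 3 at dpc8 and by 0.16 for the difference between zones 1 and 3 in dpc16 against dpc8, and by less than 0.1 elsewhere.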
